A study of Oryza sativa with 16 samples.

Results

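The genes described here are the rice cyclins, the cyclin-dependent kinases (CDKs) and the KRP proteins, which inhibit these kinases. They were chosen by name alone, as genes whose symbol or alias begins with CYC, a capital letter and a number, with CDK, or with KRP. The gene table held 49 such genes, and 40 of them had a probe set named here among 17905 genes measured. The 40 comprised 25 cyclins (3 of the A type, 4 of the B type, 9 of the D type and 9 of other types), 11 kinases (2 of the A type, 1 of the B type and 8 of other types) and 4 KRP genes. CYCA3-1, CYCB1-5, CYCD2-1, CYCT1-1, CDKB1-1, CDKC-2, CDKF-2, KRP2 and KRP3 were not analysed here.

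The 16 Affymetrix arrays measured leaf RNA of Oryza sativa in 4 groups of 4. Pusa 1121 is the aromatic and Pusa 1342 the non-aromatic parent of a cross, and each bulk combined 6 recombinant inbred lines of that cross, strongly aromatic in one bulk and non-aromatic in the other. All plants were untreated and field-grown, and healthy leaves were sampled 25 days after transplanting. A bulk value is thus an average over 6 genotypes, whereas a parental value belongs to 1 genotype. The titles call the arrays biological replicates but do not say that they came from separate plants or pools, so the spread behind each p-value is that between arrays and may be technical.

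Most CDKs are active only when a cyclin is bound to them, and the cyclin selects when the kinase acts. In plants, D-type cyclins with CDKA drive entry into the cycle in response to growth signals, A-type cyclins act through DNA replication and later, and B-type cyclins with the plant-specific CDKB kinases drive mitosis. KRP proteins bind and restrain the CDKA complexes. Other cyclins and CDKs serve transcription: CYCH with CDKD activates CDKs and phosphorylates RNA polymerase II, CYCT with CDKC promotes elongation, and cyclin C with CDKE forms the kinase module of Mediator. Leaf cells divide at the base and early in growth, and most cells of an expanded blade no longer divide.

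Every array had the same median intensity, 64.2. The probe sets of all 4 B-type cyclins and of CDKB2-1 read below it on average over the 16 arrays. Probe sets differ in how brightly they hybridise, so this bears on the precision of their values and not on how much of each RNA the leaves held. CDKB2-1 (LOC4346016, chromosome 8), the measured member of the mitotic kinases, gave 42.7, 57.5, 69.5 and 43.3 on the aromatic bulk arrays and 74.3, 24.8, 8.73 and 67.3 on the non-aromatic bulk arrays. It gave 27.6, 13.5, 89.5 and 30.4 in Pusa 1121 and 86.4, 66.1, 24.4 and 18.7 in Pusa 1342. The arrays of each group were widely spread, and all 4 groups overlapped. The log2 difference was 0.66 between the bulks (aromatic minus non-aromatic, 95% interval -0.86 to 2.18, limma adjusted p = 0.615) and -0.33 between the parents (Pusa 1121 minus Pusa 1342, -1.85 to 1.19, adjusted p = 0.816). Both intervals contained a rise of 1 log2 unit, so a change of that size was not detectable.

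CYCB2-1 (LOC4336670, chromosome 4), a mitotic cyclin, was read through the brightest probe set of its class and gave 72.6, 97.5, 21.5 and 60.8 in the aromatic bulk and 52.2, 35.3, 72.1 and 35.5 in the non-aromatic bulk. It gave 43.7, 47.4, 40.6 and 51.2 in Pusa 1121 and 41.1, 56.0, 48.5 and 80.5 in Pusa 1342. Its groups overlapped too, with a log2 difference of 0.24 (-0.59 to 1.08) between the bulks and -0.26 (-1.09 to 0.57) between the parents. Among the 4 B-type cyclins, only CYCB1-1 passed in any comparison: its mean was 12.9 in Pusa 1121 and 66.4 in Pusa 1342 (log2 difference -2.28, SE 0.786, limma adjusted p = 0.0478). That call rested on dim values and was lost when any one of the aromatic bulk, Pusa 1121 or Pusa 1342 arrays, or array 2 or 3 of the non-aromatic bulk, was left out (adjusted p up to 0.125). In whole-leaf RNA, a difference in the number of cells of a type and one in RNA per cell cannot be told apart.

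**Figure D1:**
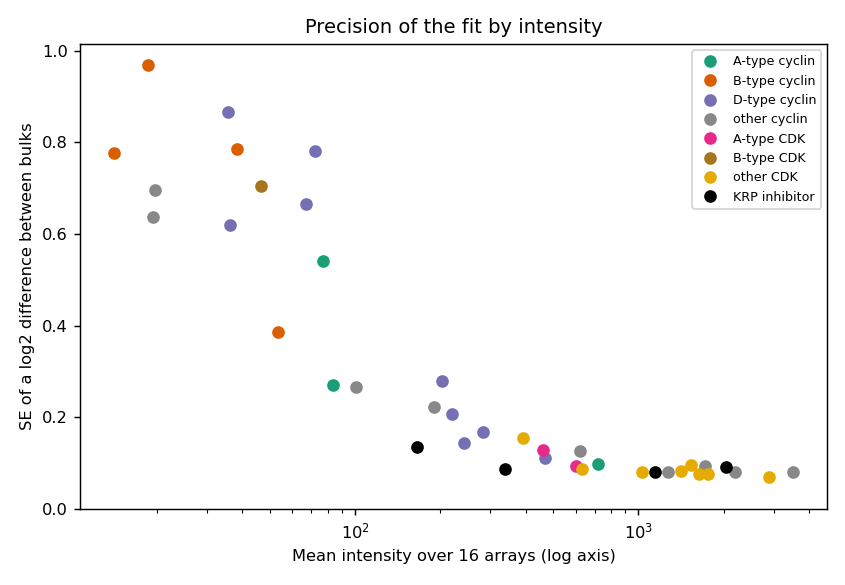
Standard error of the log2 difference between the bulks against mean intensity over 16 arrays (log axis), 1 point per gene, coloured by class. Errors were 0.0696 to 0.28 for genes with a mean of at least 100 and 0.272 to 0.97 for dimmer ones, a range that holds all B-type cyclins and CDKB2-1.

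Intensity set what could be seen. Means over the 16 arrays ran from 14.1 to 3525 across the 40 genes, with 13 under 100, and the standard errors of a difference fell as intensity rose, as the plot of errors against intensity shows.

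Between the bulks, 5 of the 40 genes (12.5%) had an adjusted p under 0.05 in limma, against 32.8% of all genes, and all 5 were higher in the aromatic bulk (16.5% of all genes were called higher). They were KRP6, the A-type cyclin CYCA1-4, CDKF-3, and the transcription cyclins CycT1;2 and CYCH1-1. No D-type cyclin, B-type cyclin, CDKA or CDKB was among them. An unadjusted p under 0.05 in limma was reached by 9 of the 40 genes, against 8146 of 17905 over all genes. These 9 included 1 D-type cyclin (CYCD5-2) and 1 CDKA (CDKA-1). At the adjusted threshold the count was 9 with a pseudocount of 64, with brighter probe sets only or with a variance trend. With only the bulk arrays in the fit it was 3. It was also 3 without array 1 or 4 of either bulk or array 1, 3 or 4 of Pusa 1342. Shares of all genes were not taken for such alternatives, here or for the counts below. The median log2 difference was 0.12 over the 40 genes and -0.0050 over all genes. Arrays of the bulks did not overlap for 8 of 40 genes (20%, against 41.4% of all genes). Among genes with a mean intensity of at least 100, 18.5% of the 27 genes of these families and 41.1% of all genes passed. That floor does not match brightness, as the median of the mean intensity was 312 over the 40 genes and 603 over all genes. The part of brightness in the lower share was not tested.

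Between the parents, 13 of 40 passed (32.5%, against 45.3% of all genes). Of these, 4 were higher in Pusa 1121 (CYCA1-4, CYCD5-3, CYCD2-2 and CycT1;2) and 9 were lower (KRP6, CDKF-3, CDKF-4, CDKG-2, CYCD4-2, CYCD5-1, CYCB1-1, CYCP2-1 and CycT1;4). Over all genes 22.4% were called higher and 22.8% lower. The median log2 difference was -0.19 over the 40 genes and -0.0080 over all genes. The count was 8 with only the parental arrays in the fit, and also without array 1 of Pusa 1121 or array 1 or 3 of Pusa 1342. The parental arrays did not overlap for 12 of 40 genes (30%, against 51.7% of all genes). At a mean of at least 100 the shares were 37% of these families and 56.3% of all genes.

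**Figure D2:**
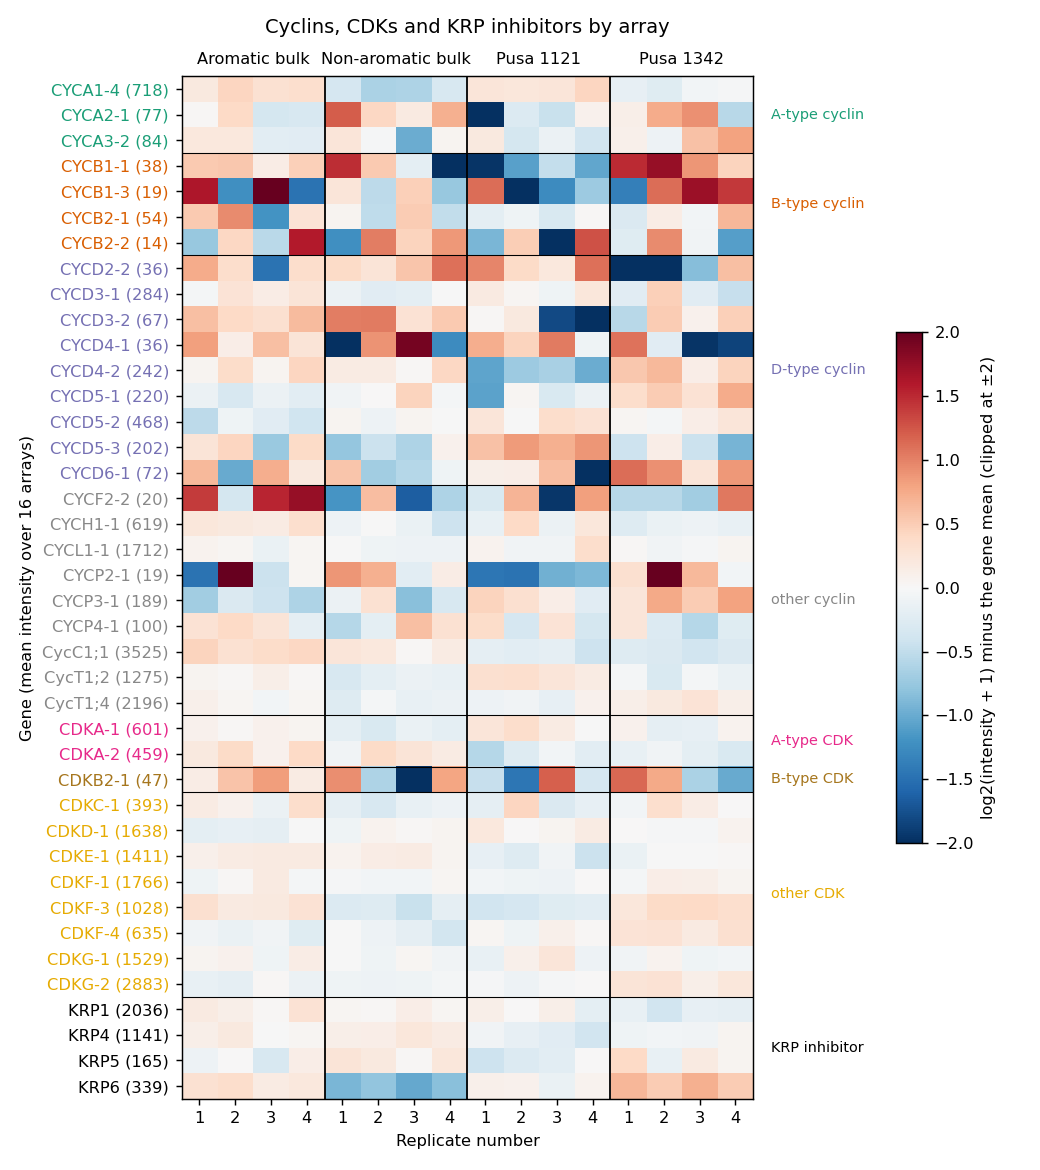
Heat map of log2(intensity + 1) minus the gene's mean over 16 arrays, 1 row per gene ordered by class and 1 column per array ordered by group. KRP6 and CDKF-3 are low in the non-aromatic bulk and high in Pusa 1342, CYCD4-2 is low in Pusa 1121, and the B-type cyclins vary within groups.

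The 2 differences were set against each other by testing the parental minus the bulk difference. It passed for 4 of 40 genes (10%, against 33.8% of all genes): KRP6, CDKF-3, CYCD4-2 and CycT1;4, all with a negative sign (17.3% of all genes were called in that direction). The count was 7 with a pseudocount of 64, 9 with a variance trend and 10 with brighter probe sets only. At a mean of at least 100 the shares were 14.8% and 42.7%. The direction was the same in bulks and parents for 22 of 40 genes (55%, against 59.8% of all genes). In all, 4 genes (10%, against 21.5% of all genes) were called in both pairs, 2 of them with the same sign, as were 76.6% of all genes called in both. CYCA1-4 and CycT1;2 were higher on the aromatic side of each, while KRP6 and CDKF-3 were higher in the aromatic bulk and lower in the aromatic parent.

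**Figure D3:**
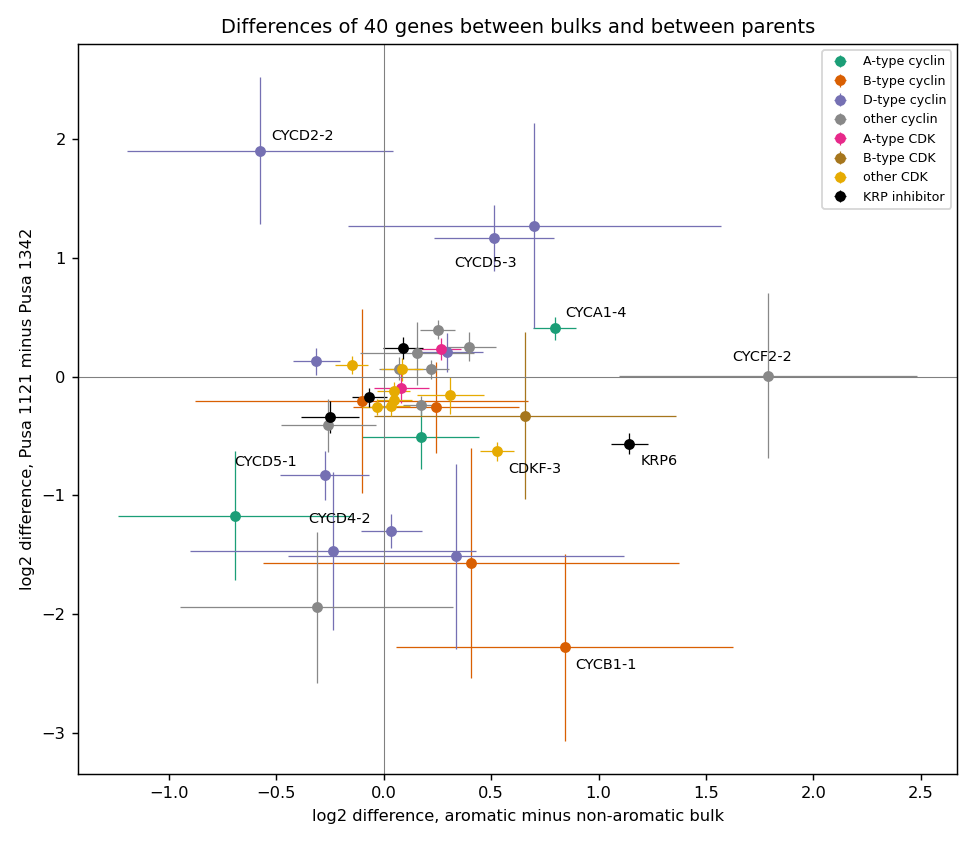
Log2 difference between the parents (Pusa 1121 minus Pusa 1342) against that between the bulks (aromatic minus non-aromatic), 1 point per gene coloured by class, with standard errors as bars. KRP6 (1.14 and -0.57) and CDKF-3 (0.53 and -0.63) lie below the horizontal and right of the vertical zero line, and CYCA1-4 (0.80 and 0.41) lies above and right.

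KRP6 (LOC4347280, chromosome 9), a CDK inhibitor, had the lowest adjusted p of the 40 genes between the bulks. Its intensities were 390, 403, 357 and 368 in the aromatic bulk and 168, 183, 156 and 178 in the non-aromatic bulk. The parents gave 341, 337, 289 and 332 (Pusa 1121) and 503, 453, 522 and 449 (Pusa 1342). No group overlapped another: Pusa 1342 was highest, then the aromatic bulk, Pusa 1121 and the non-aromatic bulk. KRP6 was 2.21-fold higher in the aromatic bulk (log2 1.14, SE 0.0879, adjusted p = 7.68e-07 in limma) and lower in Pusa 1121 than in Pusa 1342 (log2 -0.57, adjusted p = 0.000193). The parental and bulk differences differed by -1.71 (adjusted p = 3.1e-07). The non-aromatic bulk lay below both parents. A dim second KRP6 probe set, with group means of 23.3 to 39.8, passed in no comparison (bulks log2 -0.91, adjusted p = 0.571). With both KRP6 probe sets averaged, no comparison passed (bulks log2 0.12, limma adjusted p = 0.915).

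The other KRP genes passed in neither pair. KRP1, KRP4 and KRP5 had log2 differences of 0.09, -0.07 and -0.25 between the bulks, with limma adjusted p = 0.594, 0.666 and 0.251. Between the parents KRP5, at means of 141 and 179, had a log2 difference of -0.34 (adjusted p = 0.088).

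CDKF-3 (LOC4334774, chromosome 3) is named for the plant CDKF kinases, of which an Arabidopsis member activates other CDKs. It gave 1258, 1135, 1147 and 1224 in the aromatic bulk and 832, 842, 742 and 891 in the non-aromatic bulk. In the parents it gave 773, 795, 852 and 868 (Pusa 1121) and 1181, 1308, 1327 and 1274 (Pusa 1342). The arrays thus fell at 2 levels, the aromatic bulk with Pusa 1342 and the non-aromatic bulk with Pusa 1121, with no array between. Between the bulks the log2 difference was 0.53, with an SE of 0.0803 and a limma adjusted p = 0.000325. In the parents it was -0.63 (adjusted p = 3.18e-05), and the pair of differences departed from each other by -1.16 (adjusted p = 5.39e-06). Its relatives CDKF-1 and CDKF-4 did not pass between the bulks, at log2 0.05 and 0.04.

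CYCA1-4 (LOC4338177, chromosome 5) is an A-type cyclin, of the class that acts in S phase and later. Its intensities were 802, 940, 866 and 884 in the aromatic bulk and 551, 449, 455 and 562 in the non-aromatic bulk. Pusa 1121 gave 824, 822, 823 and 944, and Pusa 1342 gave 624, 590, 672 and 689. Both aromatic groups lay between 802 and 944, above every array of both non-aromatic groups. CYCA1-4 was 1.74-fold higher in the aromatic bulk (log2 0.80, SE 0.0994, limma adjusted p = 6.04e-05) and higher in Pusa 1121 (log2 0.41, adjusted p = 0.00697), and the 2 differences differed by -0.39 (adjusted p = 0.0738). The other A-type cyclins, CYCA2-1 and CYCA3-2, had means under 100 and passed in no comparison (between the parents, log2 -1.17, adjusted p = 0.147, and -0.51, adjusted p = 0.221).

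**Figure D4:**
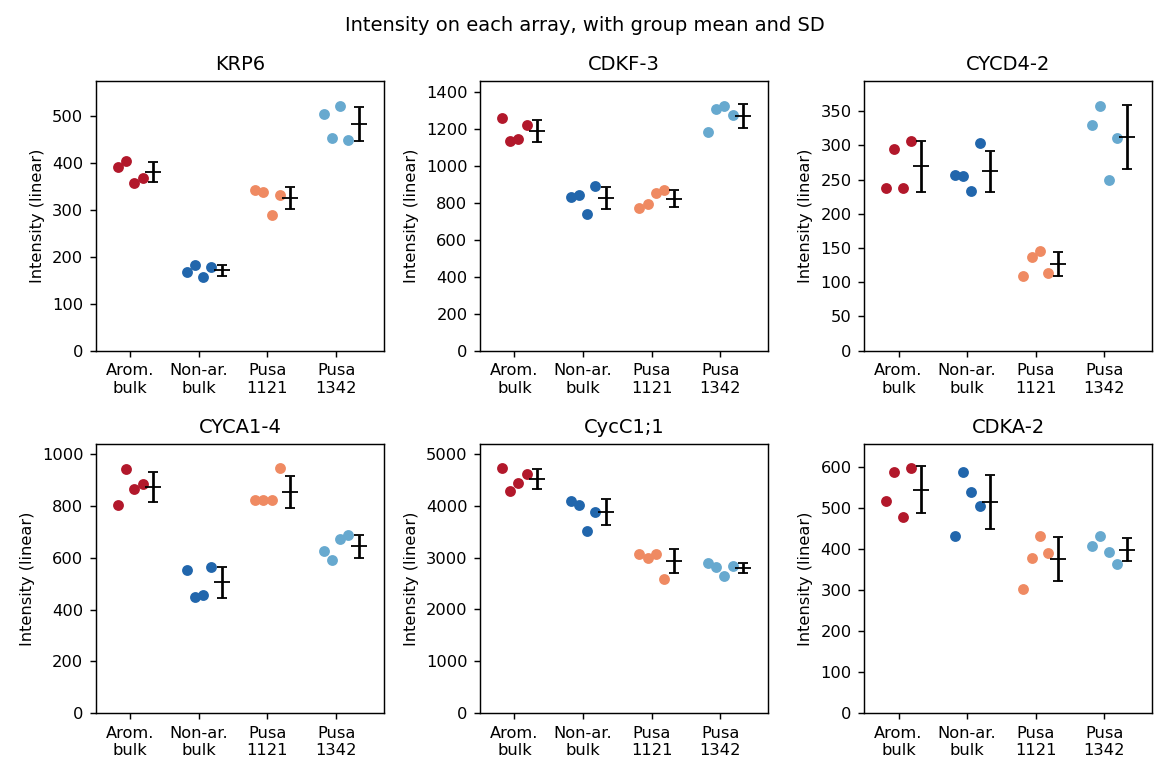
Intensity on each array for KRP6, CDKF-3, CYCD4-2, CYCA1-4, CycC1;1 and CDKA-2 in the 4 groups, 4 points per group with the mean and SD in black (linear axes from 0). KRP6 shows a separate level in each group, CDKF-3 shows 2 levels, CYCD4-2 is lowest in Pusa 1121, CYCA1-4 is high in both aromatic groups, and CycC1;1 is higher in the bulks than in the parents.

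Of the 9 D-type cyclins, which link growth signals to entry into the cycle, 2 were higher and 2 lower in Pusa 1121 and 5 did not pass. That is 44.4%, near the 45.3% of all genes. CYCD4-2 (LOC4345844, chromosome 8) gave 238, 295, 237 and 307 in the aromatic bulk, 256, 256, 233 and 303 in the non-aromatic bulk, 109, 137, 145 and 114 in Pusa 1121 and 330, 358, 249 and 311 in Pusa 1342. Pusa 1121 lay apart below the other 3 groups, which overlapped. CYCD4-2 was lower in Pusa 1121 by a log2 difference of -1.30 (SE 0.143, limma adjusted p = 8.14e-06), against 0.04 between the bulks (95% interval -0.27 to 0.35, adjusted p = 0.915). The 2 differences differed by -1.33 (adjusted p = 0.00028).

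CYCD5-3 (LOC4331985, chromosome 3) went the other way. It gave 280, 337, 305 and 343 in Pusa 1121 and 139, 205, 138 and 97.7 in Pusa 1342, and the bulks gave 223, 251, 111 and 242 (aromatic) and 109, 137, 122 and 198 (non-aromatic). The parents did not overlap, and the bulks did. It was 2.24-fold higher in Pusa 1121 (log2 1.17, limma adjusted p = 0.00605), and the difference between the bulks was 0.51 (95% interval -0.09 to 1.12, adjusted p = 0.257).

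CYCD5-1 (LOC4333455, chromosome 3) gave 101, 218, 172 and 195 in Pusa 1121 and 271, 303, 259 and 354 in Pusa 1342, and the bulks gave 196, 170, 195 and 183 (aromatic) and 201, 212, 289 and 206 (non-aromatic). Neither pair overlapped, and both were lower on the aromatic side, but only the parental difference passed (log2 -0.83, limma adjusted p = 0.00783; bulks -0.27, adjusted p = 0.444). With only the parental arrays in the fit its adjusted p was 0.0539. CYCD5-2 (LOC4352668, chromosome 12) passed in neither pair. The dim CYCD2-2, at means of 48.6 in Pusa 1121 and 17.6 in Pusa 1342, had a log2 difference of 1.90 (adjusted p = 0.0368), which did not pass without array 1, 2 or 4 of Pusa 1121 or array 1, 2 or 3 of Pusa 1342 (adjusted p up to 0.116). CYCD3-1, CYCD3-2, CYCD4-1 and CYCD6-1 passed in no comparison.

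CDKA, the central kinase to which D-type and A-type cyclins bind, did not pass within either pair. CDKA-1 had bulk means of 624 (aromatic) and 519 (non-aromatic; log2 0.27, 95% interval 0.06 to 0.47, limma adjusted p = 0.0692) and of 683 and 580 in the parents (0.23, adjusted p = 0.0936). The names of the brightest CDKA-1 and CDKA-2 probe sets carry the maker's endings for probes that can match related transcripts. Their values may therefore include signal from other genes, and whether each matches the other CDKA gene was not tested.

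Of the cyclins and kinases of transcription, 2 cyclins passed between the bulks. They were 2 of the 9 cyclins of other types (22.2%, against 32.8% of all genes). CycT1;2 (LOC4329229, chromosome 2), a partner of the elongation kinase, gave 1318, 1288, 1373 and 1281 in the aromatic bulk and 1013, 1099, 1169 and 1139 in the other bulk, and 1571, 1599, 1491 and 1422 in Pusa 1121 and 1226, 1026, 1235 and 1146 in Pusa 1342. Neither pair overlapped. It was higher on the aromatic side of both, by 0.25 in the bulks (limma adjusted p = 0.0473) and by 0.40 in the parents (adjusted p = 0.0021) on the log2 scale. The bulk call was at the threshold and was lost in 13 of 16 fits that left out 1 array (adjusted p up to 0.129), namely those without any 1 aromatic bulk array, array 1, 2 or 4 of the non-aromatic bulk, array 1, 2 or 3 of Pusa 1121, or array 1, 3 or 4 of Pusa 1342.

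CYCH1-1, the partner of CDKD, had means of 719 and 548 in the aromatic and non-aromatic bulk (log2 0.40, limma adjusted p = 0.0429) and 662 and 549 in the parents (adjusted p = 0.184). The bulk call was lost without any aromatic bulk or Pusa 1342 array, or array 1, 3 or 4 of the non-aromatic bulk (adjusted p up to 0.122). Its kinase CDKD-1 had a bulk difference of -0.15 (adjusted p = 0.224), and the elongation kinase CDKC-1 one of 0.31 (adjusted p = 0.212).

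CycT1;4 had means of 2236, 1986, 2091 and 2470 in the aromatic bulk, non-aromatic bulk, Pusa 1121 and Pusa 1342. It was lower in Pusa 1121 (log2 -0.24, limma adjusted p = 0.0419), and the parental minus the bulk difference was -0.41 (adjusted p = 0.0202). The parental call was lost without array 2 or 4 of the aromatic bulk, 3 or 4 of the non-aromatic bulk, 1, 2 or 3 of Pusa 1121, or any Pusa 1342 array (adjusted p up to 0.117).

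CDKG-2 belongs to the kinases that, with CYCL, are linked to RNA splicing in Arabidopsis. Its brightest probe set had means of 2666, 2718, 2799 and 3348 in the same order of groups and was lower in Pusa 1121 (log2 -0.26, limma adjusted p = 0.0131). With only the parental arrays in the fit, the adjusted p was 0.0607. A second CDKG-2 probe set, with means of 650, 455, 487 and 1036, passed in all 4 comparisons, with a log2 difference of 0.52 in the bulks (adjusted p = 0.00917) and of -1.10 in the parents (adjusted p = 1.03e-05), and the remaining one passed in none. CYCP2-1, of a cyclin class related to yeast PHO80, was dim, with means of 5.65 in Pusa 1121 and 28.9 in Pusa 1342 (log2 -1.94, adjusted p = 0.0377). That call was lost without any Pusa 1121 array or array 1, 2 or 3 of Pusa 1342 (adjusted p up to 0.118) and with pseudocounts of 16 and 64. CYCF2-2 had the highest difference between the bulks of the 40 genes, at log2 1.79, but its means were 36.9 and 10.6 and it did not pass (SE 0.696, adjusted p = 0.0989).

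The mean of both bulks was then compared with the mean of both parents, a difference between pooled lines and single genotypes. Of the 40 genes, 11 passed (27.5%, against 40% of all genes; 7 with the probe sets of a gene averaged), 6 higher (20.7% of all genes) and 5 lower (19.3%) in the bulks. CycC1;1, CDKE-1, CDKA-2, KRP4, KRP1 and CYCD4-2 were higher, and KRP6, CYCP3-1, CDKF-4, CYCD5-2 and CDKG-2 were lower. For CycC1;1 and CDKE-1, all 8 bulk arrays lay above all 8 parental arrays, and these were the 2 of 40 genes (5%) whose bulk and parental arrays did not overlap, against 7.95% of all genes. At a mean of at least 100, 40.7% of the genes of these families and 49.9% of all genes passed.

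**Figure D5:**
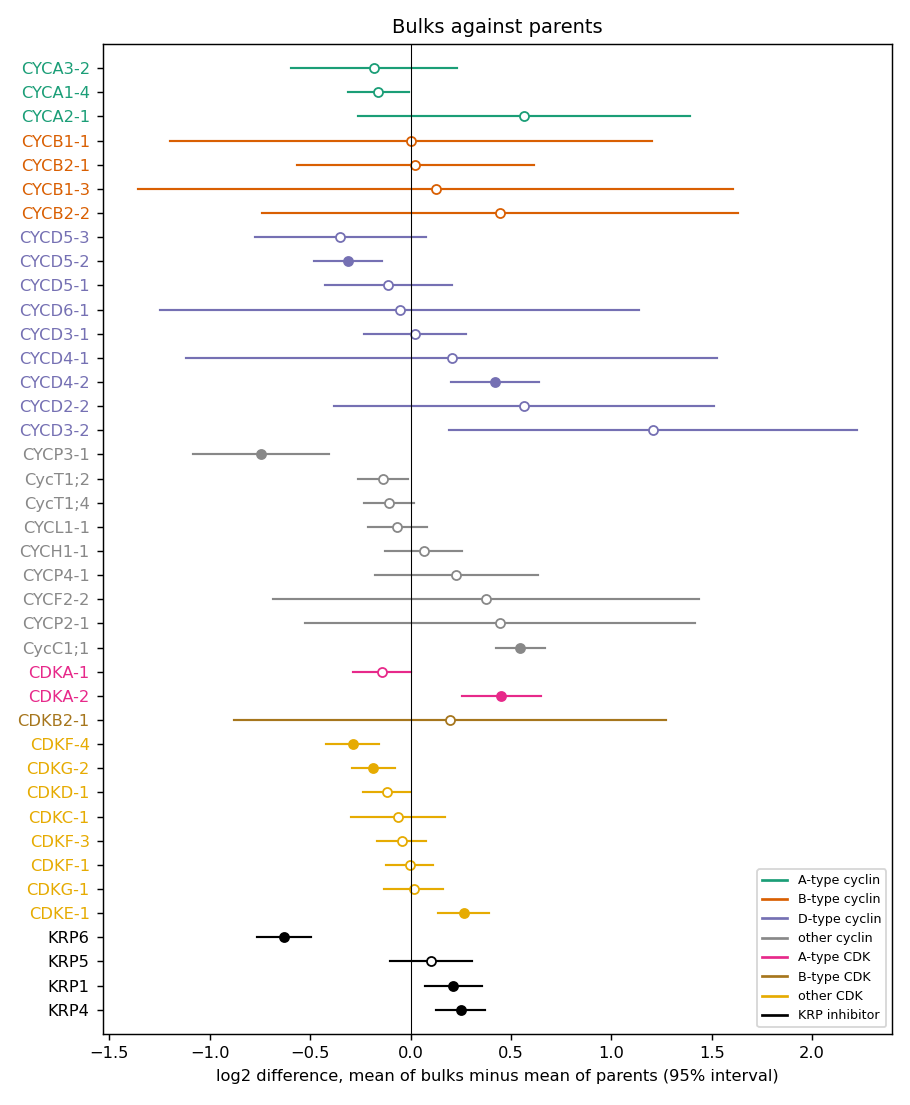
Log2 difference of the mean of both bulks minus the mean of both parents for each gene, with 95% intervals. Filled points passed at an adjusted p under 0.05, and CycC1;1 (0.55), CDKA-2 (0.45) and CDKE-1 (0.26) lie right of 0 while KRP6 (-0.63) and CYCP3-1 (-0.74) lie left.

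Cyclin C and CDKE are partners in the kinase module of Mediator, the complex that links transcription factors to RNA polymerase II. CycC1;1 (LOC9272663, chromosome 9) gave 4717, 4276, 4438 and 4604 in the aromatic bulk, 4079, 4011, 3516 and 3868 in the non-aromatic bulk, 3063, 2990, 3061 and 2582 in Pusa 1121 and 2888, 2821, 2649 and 2829 in Pusa 1342. The bulks lay above the parents, and the parents overlapped. It was 1.46-fold higher in the bulks (log2 0.55, limma adjusted p = 7.21e-06). Another bright CycC1;1 probe set gave another picture, with means of 3014, 2294, 2331 and 2616: it was higher in the aromatic bulk (log2 0.39, adjusted p = 0.000373) and did not pass between bulks and parents (log2 0.09, adjusted p = 0.164).

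CDKE-1 (LOC4349519, chromosome 10) gave 1500, 1569, 1596 and 1592 in the aromatic bulk, 1467, 1548, 1567 and 1464 in the non-aromatic bulk, 1249, 1173, 1335 and 1038 in Pusa 1121 and 1281, 1387, 1390 and 1427 in Pusa 1342. It was higher in the bulks by 0.26 on the log2 scale (limma adjusted p = 0.00394), and its dimmer second probe set was higher by 0.82 (adjusted p = 0.0439).

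CDKA-2 (LOC4328135, chromosome 2) gave 517, 588, 480 and 597 in the aromatic bulk, 431, 588, 541 and 505 in the non-aromatic bulk, 302, 379, 433 and 391 in Pusa 1121 and 407, 431, 393 and 365 in Pusa 1342. Bulks and parents overlapped only near 431. The log2 difference was 0.45 (limma adjusted p = 0.00193). A second probe set gave 0.49 (adjusted p = 0.0116), and the remaining one went the other way at -0.35 (adjusted p = 0.0849) and was higher in Pusa 1121 than in Pusa 1342 (log2 0.67, adjusted p = 0.0187). Averaged over its probe sets, CDKA-2 did not pass (adjusted p = 0.097).

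KRP4 (LOC4348872, chromosome 10), another CDK inhibitor, gave 1235, 1305, 1130 and 1172 in the aromatic bulk, 1227, 1245, 1321 and 1272 in the non-aromatic bulk, 1077, 1013, 965 and 874 in Pusa 1121 and 1073, 1097, 1077 and 1181 in Pusa 1342. The overlap came from the highest Pusa 1342 array and the lowest aromatic bulk arrays. KRP4 was higher in the bulks by 0.25 (limma adjusted p = 0.00539), and a dim second probe set gave -0.44 (adjusted p = 0.332). KRP1 was higher by 0.21 (adjusted p = 0.0301), a call lost without array 1 or 4 of the aromatic bulk, 3 of the non-aromatic bulk, 4 of Pusa 1121 or 2 of Pusa 1342 (adjusted p up to 0.0629). KRP6 was lower in the bulks (log2 -0.63, adjusted p = 4.3e-06), while KRP5 did not pass (adjusted p = 0.521).

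CYCP3-1 (LOC4338711, chromosome 5) gave 110, 147, 134 and 116 in the aromatic bulk, 164, 220, 100 and 143 in the non-aromatic bulk, 242, 224, 196 and 152 in Pusa 1121 and 212, 301, 255 and 313 in Pusa 1342. It was lower in the bulks by -0.74 on the log2 scale (limma adjusted p = 0.00294), with some overlap between the non-aromatic bulk and both parents.

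CDKF-4 (LOC4330434, chromosome 2) gave 599, 573, 600 and 534 in the aromatic bulk, 624, 587, 556 and 490 in the non-aromatic bulk, 650, 590, 671 and 643 in Pusa 1121 and 764, 769, 715 and 789 in Pusa 1342. Pusa 1342 stood above the rest. The bulks were lower by -0.29 (limma adjusted p = 0.00292), and Pusa 1121 was lower than Pusa 1342 by -0.25 (adjusted p = 0.0486). The parental call was lost without any 1 array of the aromatic bulk or of either parent, or array 2 or 3 of the non-aromatic bulk (adjusted p up to 0.134). On a second CDKF-4 probe set, with means of 176, 215, 294 and 533, both differences were larger, at -1.03 (adjusted p = 3.94e-07) and -0.86 (adjusted p = 3.93e-05).

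CYCD5-2 gave 320, 433, 394 and 351 in the aromatic bulk, 478, 432, 482 and 460 in the non-aromatic bulk, 547, 460, 590 and 565 in Pusa 1121 and 475, 448, 506 and 546 in Pusa 1342. The aromatic bulk had the lowest mean, and its highest array reached the range of the non-aromatic bulk. The bulks were lower by -0.31 (limma adjusted p = 0.00983), while a dim second probe set gave 0.35 (adjusted p = 0.766). CYCD4-2 was higher in the bulks by 0.42 (adjusted p = 0.00717), with the Pusa 1121 arrays low and the Pusa 1342 arrays in the range of the bulks or above it. The brightest CDKG-1 probe set passed in no comparison, but its dim second one was lower in the bulks (log2 -1.20, adjusted p = 4.1e-05).

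Across the 4 comparisons, 21 of 40 genes (52.5%) passed at least once, against 67.1% of all genes. The 19 that passed in none were CDKA-1, CDKB2-1, CDKC-1, CDKD-1, CDKF-1, CDKG-1, CYCA2-1, CYCA3-2, CYCB1-3, CYCB2-1, CYCB2-2, CYCD3-1, CYCD3-2, CYCD4-1, CYCD6-1, CYCF2-2, CYCL1-1, CYCP4-1 and KRP5.

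Of 25 other cell cycle genes, those of DNA replication, 2 were higher and 3 lower in the aromatic bulk (20%, against 32.8% of all genes), and 3 were higher and 4 lower in Pusa 1121 (28%, against 45.3%). RPA14, a subunit of the protein that coats single-stranded DNA, was lower on the aromatic side of both pairs (means 1716 and 2298 in the bulks, log2 -0.42, limma adjusted p = 0.00108; 758 and 2130 in the parents, log2 -1.49, adjusted p = 2.75e-09). FEN1B, named for the nuclease that trims Okazaki fragments, was higher in the aromatic bulk (1656 against 935, log2 0.82, adjusted p = 1.11e-05). MCM9 was at 207 in Pusa 1121 and 20.7 in Pusa 1342 (log2 3.56, adjusted p = 4.2e-05), and MCM2, a subunit of the replicative helicase named here after its values were seen, went the other way, at 25.5 and 370 (log2 -4.11, adjusted p = 9.19e-05). In each the lower mean was below the array median, so the size of the difference depends on the pseudocount.

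Of the retinoblastoma-related genes, which hold back entry into S phase, RBR2 was lower in Pusa 1121 (945 against 1193, log2 -0.33, limma adjusted p = 0.00995), and OsRBR1 was dim and did not pass. Of 4 other regulators, 1 was called between the bulks (25%, against 32.8% of all genes) and 2 between the parents (50%, against 45.3%). The first was EL2, lower in the aromatic bulk, a CDK inhibitor of rice, at 353 against 1179 (log2 -1.73, adjusted p = 1.35e-08), the direction opposite to that of KRP6. CKS1, a small protein that binds CDKs, was higher in Pusa 1121 (1371 against 805, log2 0.77, adjusted p = 0.00589), SMR1 was lower there (log2 -1.27, adjusted p = 0.0401), and MYB3R-2 passed in neither pair.

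Lists of marker genes were read on the same arrays. Of 7 green leaf genes, the labelled tissue, 6 had group means of at least 2332. Their summed intensity shows no stability, because CAB2R and RCAA1 reach the highest value of the table, 45123, and are large terms of it. Of the 7, 1 was called between the bulks (14.3%, against 32.8% of all genes) and 3 between the parents (42.9%, against 45.3%). GLK1, a regulator of chloroplast development, was higher in the aromatic bulk (log2 0.66, limma adjusted p = 3.88e-05) and lower in Pusa 1121 (log2 -0.74, adjusted p = 5.55e-06).

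Of 27 meristem and floral genes, 6 were called between the bulks (1 higher and 5 lower in the aromatic bulk, 22.2% against 32.8% of all genes) and 4 between the parents (all lower in Pusa 1121, 14.8% against 45.3%). Their summed intensity was 8724 to 9117 in the aromatic bulk, 18929 to 20978 in the non-aromatic bulk, 9970 to 10362 in Pusa 1121 and 16632 to 17183 in Pusa 1342. Much of this was MADS14, with means of 252, 8141, 375 and 4125, and without it the sums were 8523 to 8869, 10982 to 12154, 9610 to 10000 and 12427 to 13126. Sums of the list were thus lower on the aromatic side of both pairs, with and without MADS14. MADS18 was a large term of what remained, with means of 3312, 4840, 3516 and 5969 in the same order of groups. Log2 differences were positive for 7 of the 27 genes between the bulks and for 10 between the parents.

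Of 3 genes of senescing leaf, SGR was lower on the aromatic side of both pairs (means 2033, 4593, 1016 and 3928 in the same order of groups), NYC1 was higher in Pusa 1121 (log2 0.53, limma adjusted p = 0.000991), and NOL passed in neither pair. The summed intensity was 6442 to 7138, 8947 to 9898, 6606 to 8238 and 8449 to 9775, and without SGR it was 4565 to 4738, 4526 to 4955, 5637 to 7152 and 4820 to 5743. The lower sums on the aromatic side therefore came from SGR.

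The 2 root markers summed to 170 to 355, 508 to 644, 102 to 205 and 335 to 428, again lower on the aromatic side of both pairs, with NAR2.2 called in each (log2 -1.43, limma adjusted p = 0.00016, and log2 -1.44, adjusted p = 7.08e-05). The 7 seed markers summed to 1906 to 2052, 1375 to 1743, 1859 to 2164 and 1492 to 1673, higher on the aromatic side of both pairs. By gene the directions were mixed, with 4 positive and 3 negative log2 differences between the bulks and 3 and 4 between the parents. Of the seed list, 0 genes were called between the bulks in limma, against 32.8% of all genes. At an unadjusted p under 0.05 in limma it was 1 of 7, against 8146 of 17905 genes. Between the parents 1 was called (14.3%, against 45.3% of all genes), WX1 (log2 2.23, limma adjusted p = 2.42e-07). The part of these marker genes in the differences of the cyclins, CDKs and KRP genes was not tested.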

How the data were processed

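Leaf RNA of 4 groups of rice was measured on 16 Affymetrix arrays. The deposited table holds linear intensity values, 1 for each probe set on each array. GCOS 1.2 and RMA are listed in the submitters' processing notes, without their roles. The genome build is not given in the sources used here. Values have a distribution that is equal on all arrays, so a shift of all genes in a group would not be seen. The number of arrays limits the precision.

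The table has 57381 probe sets, of which 57194 were tested and 187 were controls. Platform annotation, updated through a gene table of assembly ASM3414082v1 used for names and chromosomes only, named 1 gene for 22436 probe sets, several for 95 and none for 34663. The 40 genes had 53 probe sets, 11 genes having more than 1. The probe set brightest by its mean over the 16 arrays stood for a gene. Where 2 genes shared an alias (CYCB1;1, CYCT1-1), the table's own symbol was used.

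Values were taken as log2(value + 1), so differences of dim genes depend on the pseudocount, and 4 group means were fitted in 1 model with lmFit and eBayes of limma 3.58.1 (R 4.3.3), leaving 12 residual degrees of freedom. The 4 contrasts were tested two-sided, and p-values were adjusted by Benjamini-Hochberg over the 57194 probe sets, with 0.05 as the threshold. Fold changes and intervals come from this fit. The steps were tested on simulated data.

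The members, gene lists and rules were chosen with earlier results of these data known. Values per array are given for genes that passed in at least 1 contrast with a group mean of at least 100, at most 14 by lowest adjusted p, and for the brightest member of a class with none (CDKB2-1, CYCB2-1). Other genes are given by means or counts. Up to 3 genes are named from each list of other cell cycle genes (replication, retinoblastoma, other regulators); lists of meristem, green leaf, senescing leaf, root and seed markers are given as sums and counts. Alternatives were other pseudocounts, brighter probe sets only, only the arrays compared, other probe sets, trend, robust and array-weight settings, centring, a replicate block and leaving out each array.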

Additional observations from a re-analysis of the deposited data

Results flagged for a closer look

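Among the 64 groups of 4 arrays of the 16 genes given per array, 3 held an array far from the others by Dixon's criterion, and chance marks about 1 in 20 groups. They were array 4 of Pusa 1121 for CYCA1-4 (944), array 3 of the non-aromatic bulk for CYCD5-1 (289) and array 4 of Pusa 1121 for CycC1;1 (2582). On the brightest probe sets, the parental difference departed from the bulk difference for 4 genes, by a test of the difference itself in limma. The departure was -1.71 log2 for KRP6 (adjusted p = 3.1e-07), -1.16 for CDKF-3 (5.39e-06), -1.33 for CYCD4-2 (0.00028) and -0.41 for CycT1;4 (0.0202). Other probe sets of CDKG-2 (-1.62), CycC1;1 (-0.56), CDKA-2 (1.06) and CDKF-4 (-0.57) also passed this test.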

How the results depend on the processing

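The count between the bulks (5) became 9 with a pseudocount of 64, with brighter probe sets only and with a variance trend, and 3 with only the arrays compared. Leaving out 1 array gave 3 to 6, the lowest without array 1 or 4 of either bulk or array 1, 3 or 4 of Pusa 1342. The parental count (13) became 8 with only the arrays compared and ranged from 8 to 13 without 1 array, the lowest without array 1 of Pusa 1121 or array 1 or 3 of Pusa 1342. The count for the parental minus the bulk difference (4) became 7 with a pseudocount of 64, 10 with brighter probe sets and 9 with a variance trend, and was 4 to 6 without 1 array. Bulks against parents (11) gave 7 with probe sets averaged and 10 to 12 without 1 array. Shares of all genes were not taken under these alternatives, so the changed counts have none to be set against.

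Signs turned only with other probe sets: KRP6 between the bulks with the second probe set (-0.91), between the parents averaged (0.042) and second (0.65), and for the parental minus the bulk difference second (1.56); and, bulks against parents, CYCD5-2 (0.018 averaged, 0.35 second) and KRP4 (-0.094 and -0.44). Of 33 calls of a gene in a comparison, 14 held under every alternative run and 19 were lost under at least 1. Those of CDKF-3, CYCD4-2, CYCA1-4, CYCD5-3 and CDKE-1 given above are among the 14. Of these genes, CDKF-3, CYCD4-2, CYCA1-4 and CYCD5-3 have 1 probe set each. For such genes the alternatives with other probe sets used the same values, so their differences could not change there. CDKE-1 has 2 probe sets and was put to those alternatives. Unless a value or the alternative's construction shows it, the cause was not tested.

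With the replicate number as a block, the count between the bulks was 3. Deviations of same-numbered arrays were nearly uncorrelated, at r -0.00709 to 0.0136 over 24 pairs. The mean r was 0.0029 for the same number and -0.00097 for different numbers. Still, 10 of 16 arrays correlated best with their own number, so these values do not settle whether the numbers pair the samples.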
